A study of Sus scrofa with 22 samples.

Results

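Cloned pig embryos titled WT were compared with embryos titled IVF, fertilized in vitro, across all genes at day 6 of culture. The comparison rests on 4 libraries, 2 for each group, of 22 in the series. All 4 were labelled as blastocysts grown in vitro. The labels give the WT embryos as male and the IVF embryos as pooled male and female, so the way the embryos were made and their sex cannot be told apart. The labels name neither the donor cells of the clones nor the number of embryos in a library, and do not say that the 2 libraries of a group came from separate cultures. The p-values therefore measure the spread between these libraries, which may be technical. The other cloned day 6 groups, titled XIST-KO (the gene of the long non-coding RNA that starts X inactivation knocked out) and WT+Kdm4A (Kdm4A is a demethylase of lysine 9 of histone H3), with 2 libraries each, entered the fit to estimate the spread.

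At the blastocyst stage an embryo holds an outer epithelium, the trophectoderm, around a fluid-filled cavity and an inner cell mass that forms the epiblast and the hypoblast. The trophectoderm seals the cavity with tight junctions and desmosomes and fills it with the sodium pump. In cloning by somatic cell nuclear transfer the genome of a donor cell is placed in an egg without its own nucleus, and the egg has to return that genome to an embryonic state before the embryo's genes are switched on.

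The WT libraries held 7703590 and 8799390 expected counts and the IVF libraries 6554010 and 6448820. Of these, 79.5% to 84.8% fell on records matched to a gene. Genes with at least 1 count numbered 6157 and 6163 in WT and 6539 and 7229 in IVF. Across the 6958 genes tested, the Spearman correlation was 0.854 between the WT libraries, 0.849 between the IVF libraries and 0.567 to 0.692 between the groups, over genes that share a library and are not independent. Values below are CPM, counts per 1000000 counts of a library with library sizes scaled by TMM, with replicate 1 before replicate 2, and fold changes are WT over IVF on a log2 scale with their standard error (SE). For XIST and KDM4A themselves no record matched, so neither is analysed here.

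Of 6958 genes tested with edgeR's quasi-likelihood test, 397 (5.71%) had an adjusted p under 0.05, 298 (4.28%) higher and 99 (1.42%) lower in WT. The WT and IVF libraries did not overlap in any of the 397. Over all genes tested, the libraries did not overlap in 59.0%, with WT wholly higher in 1882 genes (27.05%) and wholly lower in 2223 (31.9%). The median log2 fold change was -0.23 (-0.50 without WT replicate 1 to 0 without IVF replicate 2). The counts and medians of gene lists below are to be read against these values. The lists were chosen with earlier results of these data known, so a share above these values is a description and was not tested. The biological coefficient of variation of the embryo libraries was 0.893. In genes without overlap, leaving out 1 library can hardly turn the direction, so a kept direction is no further support. Every one of the 397 genes kept its direction when each of the 4 libraries was left out in turn, and none kept its call in all 4 of these fits. The call held in 3 of the 4 fits for 12 genes, in 2 for 27, in 1 for 79 and in none for 279. The count of genes called was 15 without IVF replicate 1, 0 without IVF replicate 2 (with 1103 genes at an unadjusted p under 0.05), 119 without WT replicate 1 and 46 without WT replicate 2. In these fits a group has 1 library, which is assumed to vary like the other groups. DESeq2 called 1611 genes and shared 396 of the 397, and limma on log2(TPM + 1) called 939 and shared 353. The share of called genes that were higher in WT was 75.1%, against 52.1% with DESeq2, 48.1% on TPM values, where the median of all genes was -0.51, 61.7% without a filter on low counts, 64.04% with only the compared groups and 64.5% with a filter at 1 CPM.

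**Figure D1:**
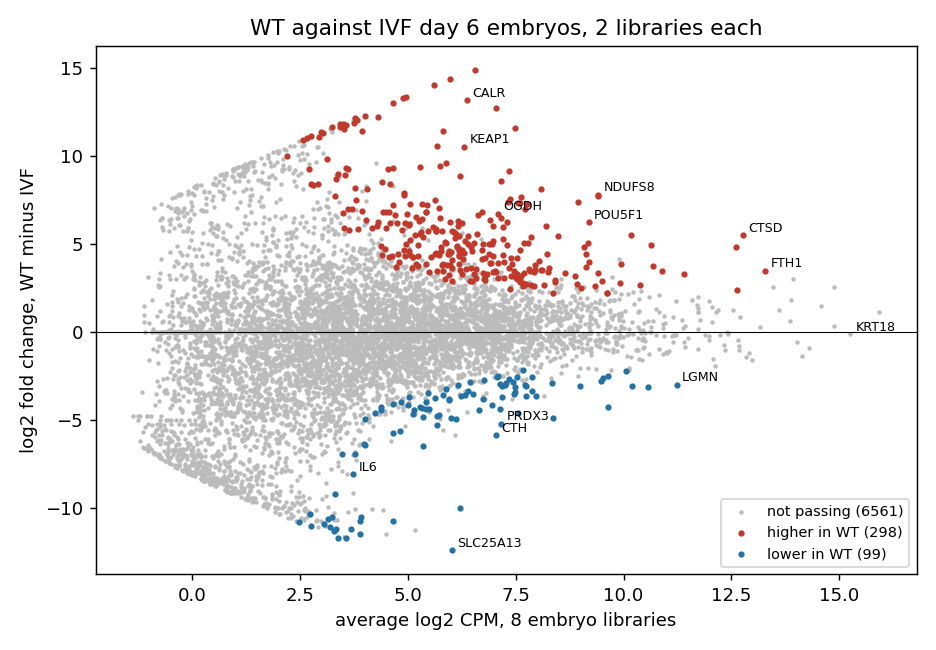
Log2 fold change of WT over IVF (vertical axis) against the average log2 CPM over the 8 embryo libraries (horizontal axis), 1 point for each of 6958 genes. The 298 genes higher in WT (red) start at 2.19 and the 99 lower (blue) at -2.18. Genes that did not pass (grey) also reach beyond these values, and KRT18 sits near 0.

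Among the genes with the largest fold changes were many detected in both libraries of 1 group and without a count in the other. Of the 298 genes higher in WT, 31 had 0 counts in both IVF libraries, and of the 99 lower genes, 18 had 0 counts in both WT libraries. For these a fold is given as a lower bound, against 3 counts over the 2 libraries (0.204 CPM for IVF and 0.251 CPM for WT), which covers counting error only. All annotated transcripts had a matched record in 14 of the 31 and in 7 of the 18; in the others, counts on transcripts not matched here would be missed. KIAA0930 (chromosome 5, 4152371 to 4198372), a gene of little-known function, had 218 and 173 CPM in WT and 0 and 0 in IVF, at least 957-fold higher (adjusted p = 0.00752). TEPSIN (chromosome 12, 1519760 to 1529542), an accessory protein of the AP-4 vesicle coat, had 134 and 101 CPM in WT and 0 and 0 in IVF, at least 576-fold higher (adjusted p = 0.00878). Both genes had 0 counts in the XIST-KO and WT+Kdm4A libraries too, so among these 8 libraries they were detected only in WT. All annotated transcripts of TEPSIN were matched and not all of those of KIAA0930. CALR (chromosome 2, 66098263 to 66102074), the calcium-binding chaperone calreticulin of the endoplasmic reticulum, had 144 and 73.1 CPM in WT and 0 and 0 in IVF, at least 532-fold higher (adjusted p = 0.00246). Unlike the previous pair it was present in the other cloned groups, at 118 and 102 CPM in XIST-KO and 93.4 and 131 CPM in WT+Kdm4A, and only the IVF libraries lacked it. KIAA0930 and CALR kept their call in 3 of the 4 fits that leave out a library, losing it without IVF replicate 2. NELFCD, a subunit of the complex that pauses RNA polymerase II, had 70.05 and 44.6 CPM in WT and 0 and 0 in IVF (at least 281-fold), and SLC35A4, a Golgi nucleotide-sugar transporter family member, had 72.3 and 122 CPM in WT and 0 and 0 in IVF (at least 476-fold). MTG1, a GTPase of the mitochondrial ribosome, had 321 and 718 CPM in WT and 0 and 0.123 in IVF (7515-fold on pooled counts, with an exact 95% counting interval of 1348 to 296870.0, adjusted p = 0.00752). Not all annotated transcripts of MTG1 were matched, so counts on the others would be missed. The signalling adaptor GRAP, the microtubule-associated protein MTUS2 and C13H21orf33 were also without a count in IVF, at least 604-fold, 1749-fold and 1214-fold higher in WT. The call of MTUS2 (adjusted p = 0.0494) was close to the threshold and ended without any 1 of the 4 libraries.

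In the other direction, SLC25A13 (chromosome 9, 75781421 to 75980606), the mitochondrial aspartate and glutamate carrier citrin, had 0 and 0 CPM in WT and 81.996 and 47.2 in IVF and was at least 257-fold lower in WT (adjusted p = 0.0202). It was detected in all 4 other cloned libraries, at 1.49 and 73.0 CPM in XIST-KO and 219.5 and 95.9 CPM in WT+Kdm4A. GSTM3 (chromosome 4, 110330027 to 110332957), a glutathione transferase, had 0 and 0 CPM in WT and 37.2 and 41.6 in IVF (at least 157-fold lower). The lipoxygenase ALOX12 had 0 and 0 CPM in WT and 35.5 and 26.3 in IVF (at least 123-fold), and the adhesion receptor ADGRG1 had 0 and 0 CPM in WT and 18.7 and 48.5 in IVF (at least 134-fold). PCYT1A, which makes the activated choline of phosphatidylcholine synthesis, had 0 and 0 CPM in WT and 17.3 and 24.05 in IVF (at least 82.3-fold). In all of these both WT libraries were empty. The Janus kinases TYK2 and JAK3, which carry cytokine signals from receptors, were both without a count in WT. TYK2 had 0 and 0 CPM in WT and 24.02 and 21.2 in IVF. JAK3 had 0 and 0 CPM in WT and 15.1 and 27.8 in IVF. They were at least 90.1-fold and 85.6-fold lower in WT, with adjusted p = 0.0499 and 0.0494, both close to the threshold. ANXA8, an annexin, had 0 and 0 CPM in WT and 4.74 and 74.3 in IVF, so that 1 IVF library held most of its counts. MYL7, the atrial myosin light chain, had 0 and 0 CPM in WT and 15.1 and 35.1 in IVF (at least 100.1-fold lower). The X-linked genes UPRT, a phosphoribosyltransferase family member, and MED14, a Mediator subunit, were at least 109.6-fold and 75.8-fold lower in WT.

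**Figure D2:**
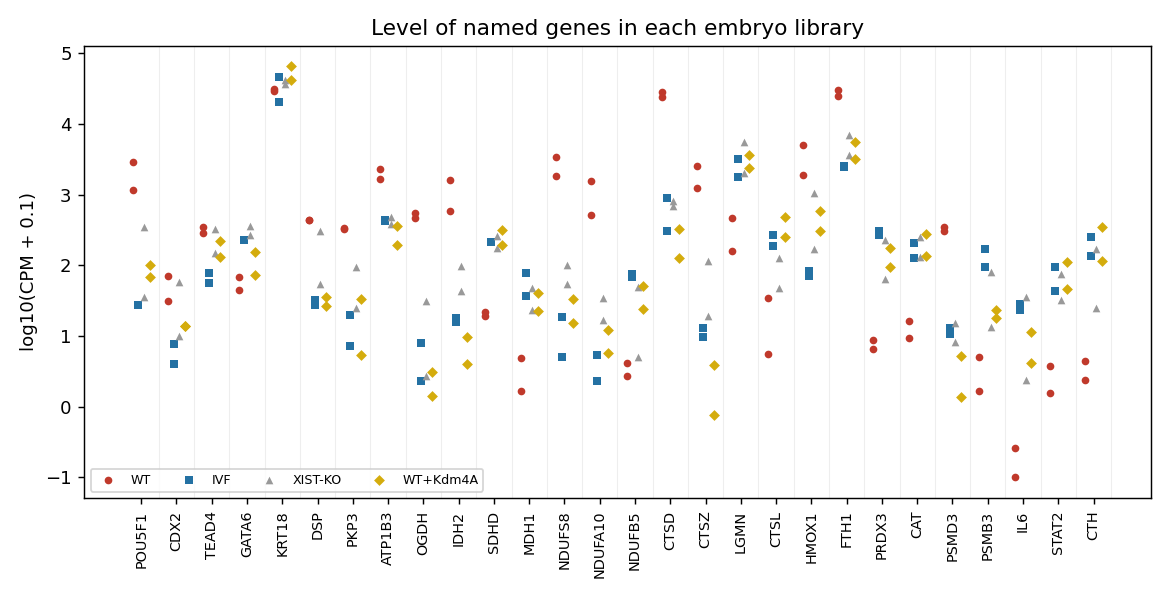
Level of 28 named genes in each of the 8 embryo libraries, as log10(CPM + 0.1) on the vertical axis, with WT as red circles, IVF as blue squares, XIST-KO as grey triangles and WT+Kdm4A as yellow diamonds. POU5F1, CTSD and OGDH stand above every other library in WT, and SDHD, PRDX3 and CTH below, while the KRT18 points of WT and IVF overlap.

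Pluripotency and lineage genes differed by 1 gene that passed the test. POU5F1 (chromosome 7, 23564654 to 23570691), which encodes OCT4, a transcription factor of pluripotent cells, had 1156 and 2901 CPM in WT and 27.4 and 27.1 in IVF (log2 fold change 6.22 ± 1.06 (SE), adjusted p = 0.0126, and 5.40 to 6.71 with a library left out). Both WT libraries were above every other embryo library, which held 352 and 35.6 CPM in XIST-KO and 68.5 and 101 CPM in WT+Kdm4A. In libraries of whole embryos, fewer cells of a type and less RNA per cell cannot be told apart. POU5F1 is a gene with near-identical copies elsewhere in mammalian genomes, so its counts may be shared with them. Of the 28 pluripotency genes listed, 23 had a matched record, 15 were tested, 1 was higher, 0 were lower and 14 did not pass, with a median of -1.83 (-2.53 without WT replicate 2 to 0 without IVF replicate 2) beside -0.23 for all genes tested. On TPM values it was -0.89 beside -0.51. Without IVF replicate 2 the list and all genes had the same median, 0. That is also the value the fit gives a gene without a count in the libraries compared. In 7 of the 15 both WT libraries lay below both IVF libraries and in 3 above, 10 of 15 (66.7%) without overlap against 59.0% of all genes. ZFP42 (REX1), a zinc finger protein of early embryos, had 12.4 and 6.10 CPM in WT and 53.2 and 63.4 in IVF (adjusted p = 0.0856). KLF4, another pluripotency factor, had 0.966 and 1.92 CPM in WT and 10.4 and 14.1 in IVF (adjusted p = 0.16). GDF3, a NODAL-related ligand, had 1.45 and 0 CPM in WT and 3.37 and 23.3 in IVF (adjusted p = 0.187). All 3 lay below both IVF libraries in both WT libraries. Without IVF replicate 2 their log2 fold changes were -2.51, -2.86 and -2.16. In that fit POU5F1 was at 6.19 and KLF17, described below, at 0.74. Levels of SOX2 and NANOG, which define the epiblast together with OCT4, were at or near 0: SOX2 had 0 CPM in 3 of the 4 libraries and 0.153 CPM in IVF replicate 1, and NANOG had 0 CPM in 3 and 2.70 CPM in IVF replicate 2.

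The keratins KRT8 and KRT18 made up most of the trophectoderm marker level in both groups. Epiblast markers other than POU5F1 and KLF17 were low. KLF17, a Krüppel-like factor, had 46.9 and 125 CPM in WT and 50.6 and 62.7 in IVF, above POU5F1 in both IVF libraries. The 8 matched trophectoderm markers summed to 64847 and 61331 CPM in WT and 83336 and 35571 CPM in IVF, the 7 matched epiblast markers to 1209 and 3028 CPM in WT and 83.2 and 119 CPM in IVF and the 7 matched hypoblast markers to 121 and 93.2 CPM in WT and 315 and 343 CPM in IVF. KRT18, a keratin of this epithelium, had 29644 and 30782 CPM in WT and 46004 and 20524 in IVF. Its partner KRT8 had 34325 and 29904 CPM in WT and 36646 and 14713 in IVF. The groups overlapped for both keratins and neither passed the test (adjusted p = 0.914 and 0.834). TEAD4, the transcription factor through which the Hippo pathway sets trophectoderm fate, had 347 and 289 CPM in WT and 78.9 and 56.6 in IVF (log2 fold change 2.23 ± 0.63 (SE), adjusted p = 0.0589). CDX2, a trophectoderm transcription factor, had 70.4 and 31.0 CPM in WT and 3.98 and 7.61 in IVF (adjusted p = 0.112). Both lay higher in the 2 WT libraries without passing. KRT19, another keratin of the marker list, lay lower, with 46.2 and 4.88 CPM in WT and 353 and 91.9 in IVF. TFAP2A, also a marker, had 0.322 and 0.348 CPM in WT and 0 and 0 in IVF. Of the 7 trophectoderm markers tested, WT was wholly above IVF in 4 and below in 1. That is 5 of 7 (71.4%) without overlap, against 59.0% of all genes. GATA2, another factor of this lineage, had 331 and 236 CPM in WT and 225 and 166 in IVF (adjusted p = 0.676). PTGS2, a prostaglandin synthase, had 4.99 and 14.6 CPM in WT and 83.1 and 96.9 in IVF (adjusted p = 0.141). None of 14 tested trophectoderm regulators passed in edgeR (of 26 listed and 21 matched), with 5 at an unadjusted p under 0.05 and 5 called by DESeq2. Their median was 0.43 (0.22 without WT replicate 1 to 0.69 without IVF replicate 1), and -0.18 on TPM values. None of 8 tested Hippo pathway genes passed in edgeR (1 at an unadjusted p under 0.05, 1 with DESeq2).

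Among hypoblast genes, GATA6, a transcription factor of the primitive endoderm, had 44.9 and 67.9 CPM in WT and 231 and 226 in IVF (log2 fold change -2.02 ± 0.61 (SE), adjusted p = 0.0747), the WT libraries lying below the IVF libraries. GATA4, its relative, had 70.7 and 16.7 CPM in WT and 65.3 and 75.1 in IVF, with overlap between the groups, and HNF4A, a factor of endoderm, had 5.15 and 4.70 CPM in WT and 16.5 and 35.1 in IVF (adjusted p = 0.643 and 0.213). None of 6 tested hypoblast genes passed in edgeR, of 20 listed and 13 matched (2 at an unadjusted p under 0.05, 2 with DESeq2), with a median of -2.20 (-2.39 without IVF replicate 1 to -1.74 without IVF replicate 2). Of maternal and oocyte genes, 12 of 41 were tested and none passed in edgeR (4 at an unadjusted p under 0.05, 4 with DESeq2), with a median of -2.38 (-3.41 without WT replicate 1 to -1.49 without IVF replicate 2). ZP4, a protein of the coat of the egg, had 1.13 and 0.522 CPM in WT and 11.6 and 46.9 in IVF (adjusted p = 0.0837). CCNB1, the mitotic cyclin B1, had 84.2 and 36.7 CPM in WT and 286 and 531 in IVF (adjusted p = 0.0616). H1FOO, the linker histone of oocytes, had 28.3 and 29.3 CPM in WT and 3.52 and 1.84 in IVF (adjusted p = 0.143). ZP4 and CCNB1 lay below IVF in both WT libraries and H1FOO above. Of genes of zygotic genome activation, 5 of 21 were tested and none passed in edgeR (1 at an unadjusted p under 0.05, 0 with DESeq2).

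Among markers of other cells that could be carried along with an embryo, the fibroblast, cumulus, oocyte and blood lists summed higher in both IVF libraries. Single cumulus, oocyte and blood markers went the other way. Summed over the 12 matched fibroblast markers of 17 listed, the level was 22.9 and 28.7 CPM in WT and 54.8 and 119.9 CPM in IVF, where vimentin (VIM) alone made up all of the WT value. DCN, a matrix proteoglycan, had 0 and 0 CPM in WT and 7.80 and 4.42 in IVF, and TAGLN, an actin-binding protein of smooth muscle and fibroblasts, had 0 and 0 CPM in WT and 12.2 and 12.6 in IVF. COL3A1, LUM, FBN1, TWIST1 and TWIST2 had 0 counts in all 4 libraries. The 14 matched cumulus and granulosa markers of 15 listed summed to 21.6 and 18.6 CPM in WT and 56.8 and 45.3 CPM in IVF, mostly from HSD17B1 and CYP11A1, and FSHR, LHCGR, HSD3B1, FOXL2, PTX3 and TNFAIP6 had 0 counts in all 4. CYP11A1, the enzyme that starts steroid synthesis, had 6.76 and 1.74 CPM in WT and 35.5 and 16.3 in IVF. The 11 oocyte markers, of which NLRP5 and BTG4 had 0 counts in all 4 libraries, summed to 5.47 and 2.26 CPM in WT and 25.2 and 62.6 CPM in IVF. More of these markers were at 0 in IVF (8 and 6) than in WT (4 and 5). MOS, another of them, had 2.58 and 0.697 CPM in WT and 0 and 0 in IVF. The 9 matched blood cell markers of 10 listed summed to 3.86 and 4.01 CPM in WT and 13.5 and 11.4 CPM in IVF, with PTPRC and CD3E at 0 in all 4 and TYROBP, a myeloid adaptor, at 0 and 0 CPM in WT and 2.91 and 2.70 in IVF. Of the 3 blood markers tested, the groups did not overlap in 1 (33.3%), against 59.0% of all genes. Of 9 matched sperm markers, 8, among them PRM1 and PRM2, had 0 counts in all 4, and ODF2, which is also a centrosome protein of other cells, had 96.6 and 83.4 CPM in WT and 40.7 and 80.4 in IVF. The part of these markers in the differences between the groups was not tested.

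Genes of the junctions and pumps that build the blastocyst cavity had a median of 1.22 (0.32 without WT replicate 1 to 1.50 without IVF replicate 1, and 0.41 on TPM values). Of 24 tested (34 listed, 30 matched), 3 were higher, 0 lower and 21 did not pass (12.5% called against 5.71% of all genes). In 12 both WT libraries were above both IVF libraries and in 6 below, 18 of 24 (75.0%) without overlap against 59.0% of all genes. DSP (chromosome 7, 4862649 to 4915626), desmoplakin, which ties desmosomes to keratin filaments, had 442 and 439.9 CPM in WT and 27.4 and 32.8 in IVF (log2 fold change 3.87 ± 0.81 (SE), adjusted p = 0.0218, and 3.77 to 4.01 with a library left out). PKP3, plakophilin 3, another desmosome plaque protein, had 341 and 324 CPM in WT and 19.4 and 7.12 in IVF (log2 fold change 4.65 ± 1.05 (SE), adjusted p = 0.0281). ATP1B3, a beta subunit of the sodium pump, had 1647 and 2309 CPM in WT and 439 and 425 in IVF (log2 fold change 2.19 ± 0.55 (SE), adjusted p = 0.0417). The groups stood well apart in each of the 3 genes, while XIST-KO replicate 1 came nearest to WT in DSP and PKP3, at 308 and 93.8 CPM.

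Mitochondrial genes were called in both directions. Of 27 genes of the TCA cycle and pyruvate metabolism (31 listed, 27 matched), 4 were higher, 2 lower and 21 did not pass (22.2% called against 5.71% of all genes), with a median of -0.23 (-0.26 without IVF replicate 2 to -0.11 without IVF replicate 1) beside -0.23 for all genes. OGDH (chromosome 18, 50609415 to 50684990), a subunit of the alpha-ketoglutarate dehydrogenase complex, had 558 and 474 CPM in WT and 7.80 and 2.21 in IVF (log2 fold change 6.69 ± 1.23 (SE), adjusted p = 0.0145, and 6.05 to 7.89 with a library left out). IDH2, the mitochondrial NADP-dependent isocitrate dehydrogenase, had 585 and 1596 CPM in WT and 18.1 and 15.9 in IVF (log2 fold change 6.00 ± 0.84 (SE), adjusted p = 0.00784). In OGDH and IDH2 the other cloned libraries lay closer to IVF than to WT, at 31.5 and 2.63 CPM in XIST-KO and 1.32 and 2.95 CPM in WT+Kdm4A for OGDH. SUCLG1, a succinyl-CoA ligase subunit, had 1986 and 4385 CPM in WT and 522 and 502 in IVF, and IDH3B, of the NAD-dependent isocitrate dehydrogenase, had 1316 and 1577 CPM in WT and 319 and 308 in IVF (log2 fold changes 2.64 and 2.20, adjusted p = 0.0488 and 0.0465). The lower pair were SDHD, a membrane anchor of succinate dehydrogenase, with 18.8 and 21.8 CPM in WT and 213 and 215 in IVF (log2 fold change -3.40 ± 0.61 (SE), adjusted p = 0.0145), and MDH1, the cytosolic malate dehydrogenase, with 4.83 and 1.57 CPM in WT and 37.2 and 76.7 in IVF (log2 fold change -4.15 ± 1.03 (SE), adjusted p = 0.0412).

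Of 40 subunits of oxidative phosphorylation tested (68 listed, 40 matched), 5 were higher, 1 lower and 34 did not pass (15% called against 5.71% of all genes). The median was 0.56 (0.43 without IVF replicate 2 to 0.84 without IVF replicate 1), and -0.08 on TPM values, where the median of all genes was -0.51. WT lay wholly above IVF in 20 and wholly below in 8, 28 of 40 (70.0%) without overlap against 59.0% of all genes. All 6 genes called belong to complex I, the NADH dehydrogenase, which made up 33 of the 40. NDUFS8 (chromosome 2, 4863295 to 4867392), an iron-sulfur subunit, had 1816 and 3383 CPM in WT and 18.7 and 4.91 in IVF (log2 fold change 7.79 ± 0.94 (SE), adjusted p = 0.00371, and 7.11 to 9.06 with a library left out). NDUFA10 had 514 and 1567 CPM in WT and 5.35 and 2.21 in IVF (log2 fold change 8.11 ± 0.98 (SE), adjusted p = 0.00371). Both kept their call in 3 of the 4 fits that leave out a library, ending without IVF replicate 2. NDUFS6 had 151 and 292 CPM in WT and 0.153 and 0 in IVF, so that it was all but absent from IVF (3210.0-fold on pooled counts, with an exact 95% counting interval of 576 to 126834, adjusted p = 0.0145). NDUFAB1, the mitochondrial acyl carrier protein, had 1861 and 2117 CPM in WT and 279 and 108 in IVF, and NDUFA12 had 273 and 207 CPM in WT and 32.4 and 16.8 in IVF (log2 fold changes 3.36 and 3.29, adjusted p = 0.0161 and 0.0218). NDUFB5 went the other way, with 4.03 and 2.61 CPM in WT and 76.03 and 67.5 in IVF (log2 fold change -4.43 ± 1.17 (SE), adjusted p = 0.0494).

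In glycolysis, 14 of 24 genes were tested (17 matched), 1 was lower and 13 did not pass, with a median of -0.92 (-0.91 without WT replicate 1 to -0.22 without IVF replicate 2). PGK1, the X-linked phosphoglycerate kinase, had 10.9 and 10.8 CPM in WT and 143 and 314 in IVF (log2 fold change -4.39 ± 0.83 (SE), adjusted p = 0.0165). LDHA, a lactate dehydrogenase subunit, had 64.7 and 38.3 CPM in WT and 228 and 263 in IVF (adjusted p = 0.0542). Its partner LDHB had 3229 and 3428 CPM in WT and 1571 and 2536 in IVF (adjusted p = 0.401). GAPDH had 1090.2 and 1098 CPM in WT and 3263 and 869.9 in IVF (adjusted p = 0.391). LDHA was below the IVF libraries in both WT libraries and LDHB above, and GAPDH overlapped. Of 14 genes of serine, folate and one-carbon metabolism (22 listed, 14 matched), 1 was lower and 13 did not pass, 7.14% called against 5.71% of all genes. In 6 both WT libraries were below both IVF libraries and in 0 above, 6 of 14 (42.9%) without overlap against 59.0% of all genes. CTH (chromosome 6, 142454922 to 142486352), cystathionine gamma-lyase, which makes cysteine, had 2.25 and 4.35 CPM in WT and 134 and 255 in IVF (log2 fold change -5.88 ± 1.08 (SE), adjusted p = 0.0146, and -6.44 to -5.35 with a library left out). AHCY, which clears S-adenosylhomocysteine after methyl transfer, had 294 and 117 CPM in WT and 944 and 873 in IVF (adjusted p = 0.057).

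None of 20 cholesterol synthesis genes (26 listed, 20 matched) passed in edgeR, with 4 at an unadjusted p under 0.05 and 1 called by DESeq2. ACAT2, which condenses acetyl-CoA at the start of the pathway, had 1934 and 4366 CPM in WT and 1097 and 796 in IVF (adjusted p = 0.128). MSMO1, a sterol oxidase, had 1.45 and 1.22 CPM in WT and 24.6 and 15.1 in IVF (adjusted p = 0.15). None of 22 genes of fatty acid and lipid droplet metabolism (32 listed, 28 matched) passed in edgeR either, with 6 at an unadjusted p under 0.05 and 6 called by DESeq2. PLIN2, the coat protein of lipid droplets, in which pig embryos are rich, had 1690.3 and 1932 CPM in WT and 2296 and 4243 in IVF (adjusted p = 0.315). DGAT1, which makes triglycerides, had 28.5 and 105 CPM in WT and 3.06 and 0.491 in IVF and fell just short of the threshold (adjusted p = 0.0506).

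Lysosomal proteases split into higher and lower genes. Of 26 genes of endocytosis, lysosome and autophagy tested (35 listed, 28 matched), 4 were higher, 2 lower and 20 did not pass (23.1% called against 5.71% of all genes), with a median of -0.13 (-0.29 without WT replicate 2 to 0.28 without IVF replicate 1). CTSD (chromosome 2, 1188548 to 1197642), the aspartic protease cathepsin D, had 24379.9 and 28442 CPM in WT and 885 and 302 in IVF (log2 fold change 5.48 ± 0.79 (SE), adjusted p = 0.00793, and 4.90 to 6.47 with a library left out), and kept its call in 3 of the 4 fits that leave out a library. The other cloned libraries held 696 and 826 CPM in XIST-KO and 126 and 326 CPM in WT+Kdm4A. CTSZ, cathepsin Z, had 1232 and 2546 CPM in WT and 12.7 and 9.69 in IVF (log2 fold change 7.40 ± 1.15 (SE), adjusted p = 0.00867). LAMP1, a glycoprotein of the lysosomal membrane, had 122 and 139 CPM in WT and 1.07 and 0.613 in IVF (log2 fold change 7.27 ± 1.29 (SE), adjusted p = 0.0144). CTSH, cathepsin H, had 421 and 489 CPM in WT and 63.03 and 104 in IVF (log2 fold change 2.44, adjusted p = 0.0394). All 4 were higher in both WT libraries than in every other embryo library. In contrast CTSL, cathepsin L, had 34.9 and 5.40 CPM in WT and 187 and 272 in IVF (log2 fold change -3.51 ± 0.90 (SE), adjusted p = 0.046, and -5.43 to -2.73 with a library left out), and LGMN, the protease legumain, had 466 and 162 CPM in WT and 3244 and 1756 in IVF (log2 fold change -2.99 ± 0.74 (SE), adjusted p = 0.0394).

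Antioxidant genes had 4 higher and 4 lower of 24 tested (29 listed, 27 matched), 33.3% against 5.71% of all genes, with a median of 0.42 (-0.06 without WT replicate 1 to 0.70 without IVF replicate 1, and -0.25 on TPM values). HMOX1, heme oxygenase 1, had 5039 and 1884 CPM in WT and 70.2 and 84.2 in IVF (log2 fold change 5.49 ± 0.95 (SE), adjusted p = 0.013). FTH1, the ferritin heavy chain that stores iron, had 25050.1 and 30387 CPM in WT and 2482 and 2545 in IVF (log2 fold change 3.46 ± 0.62 (SE), adjusted p = 0.0145), and is a gene with many near-identical copies. KEAP1 (chromosome 2, 69280940 to 69290267), the adaptor that marks the antioxidant factor NRF2 for degradation, had 163 and 64.3 CPM in WT and 0 and 0.123 in IVF (1701-fold on pooled counts, with an exact 95% counting interval of 305 to 67227, adjusted p = 0.00371). As with CALR, KEAP1 was present in the other cloned libraries, at 90.2 and 113 CPM in XIST-KO and 63.3 and 139 CPM in WT+Kdm4A. Not all annotated transcripts of KEAP1 were matched, so counts on the others would be missed. The lower genes included GSTM3, above, PRDX3 and CAT. PRDX3 (chromosome 14, 129079050 to 129090790), the peroxiredoxin of mitochondria, had 8.70 and 6.44 CPM in WT and 304 and 269 in IVF (log2 fold change -5.24 ± 0.82 (SE), adjusted p = 0.00867, and -5.49 to -5.05 with a library left out). CAT, the peroxisomal catalase, had 9.34 and 16.02 CPM in WT and 127 and 209.8 in IVF (log2 fold change -3.73 ± 0.72 (SE), adjusted p = 0.0178).

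Of 26 chaperones and genes of the unfolded protein response (31 listed, 27 matched), 4 were higher, 0 lower and 22 did not pass (15.4% called against 5.71% of all genes), with a median of 0.48 (0.20 without WT replicate 2 to 0.67 without IVF replicate 2, and -0.21 on TPM values). The 4 were CALR, described above, SDF2L1, PDIA3 and CRELD2, all proteins of the endoplasmic reticulum. SDF2L1, a co-chaperone component, had 288 and 1173 CPM in WT and 6.12 and 3.19 in IVF (log2 fold change 7.30 ± 1.34 (SE), adjusted p = 0.0145). PDIA3, a disulfide isomerase that works with calreticulin, had 158 and 258 CPM in WT and 1.38 and 11.2 in IVF, and CRELD2, a folding factor, had 191 and 279.9 CPM in WT and 24.02 and 17.8 in IVF (log2 fold changes 5.04 and 3.49, adjusted p = 0.048 and 0.023). Of 16 genes of the integrated stress response and amino acid supply (27 listed, 21 matched), 1 was higher, 0 lower and 15 did not pass, with a median of 1.08 (0.47 without WT replicate 2 to 1.49 without IVF replicate 1). PPP1R15A (GADD34), which reverses the translational arrest of this response, had 31.1 and 70.4 CPM in WT and 1.53 and 0.245 in IVF (log2 fold change 5.84 ± 1.53 (SE), adjusted p = 0.0488). ATF4, its main transcription factor, had 4090.3 and 3215 CPM in WT and 2089 and 1325 in IVF (adjusted p = 0.242). SLC1A5, a glutamine transporter, had 135 and 146 CPM in WT and 26.5 and 19.5 in IVF (adjusted p = 0.0582). All 3 lay higher in both WT libraries, and ATF4 and SLC1A5 did not pass. Over this list, WT was wholly above IVF in 8 and below in 4, 12 of 16 (75.0%) without overlap against 59.0% of all genes. Of 15 hypoxia-induced genes (20 listed, 16 matched), 1 was higher and 14 did not pass: BNIP3, a mitophagy receptor, had 743 and 1373 CPM in WT and 61.7 and 38.03 in IVF (log2 fold change 4.41 ± 0.90 (SE), adjusted p = 0.0203). ADM, the peptide adrenomedullin, had 97.6 and 66.9 CPM in WT and 15.6 and 33.6 in IVF (adjusted p = 0.179). KDM3A, also of this list, went the other way, with 7.25 and 0.697 CPM in WT and 36.9 and 73.0 in IVF. The list median was -1.15 (-2.05 without IVF replicate 1 to 1.34 without IVF replicate 2). WT was wholly below IVF in 5 and above in 2, 7 of 15 (46.7%) without overlap against 59.0% of all genes.

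Among 28 cytoskeleton and adhesion genes (35 listed, 28 matched), 3 were higher, 0 lower and 25 did not pass (10.7% called against 5.71% of all genes). Their median was -0.33 (-0.28 without WT replicate 2 to 0.16 without IVF replicate 1). WT was wholly above IVF in 13 and below in 11, 24 of 28 (85.7%) without overlap against 59.0% of all genes. TUBB4B, a beta tubulin, had 5457 and 4750.3 CPM in WT and 499.8 and 259 in IVF (log2 fold change 3.75 ± 0.67 (SE), adjusted p = 0.0145). MYL9, a myosin regulatory light chain, had 449 and 1502 CPM in WT and 34.6 and 10.7 in IVF (log2 fold change 5.43 ± 1.16 (SE), adjusted p = 0.0225). TPM1, a tropomyosin, had 366 and 1131 CPM in WT and 82.1 and 109.7 in IVF (log2 fold change 2.96 ± 0.65 (SE), adjusted p = 0.0256, and 1.92 to 3.54 with a library left out). In all 3 the lower WT library was above the higher IVF library. Of 26 proteasome subunits (31 listed, 26 matched), 3 were higher, 1 lower and 22 did not pass (15.4% called against 5.71% of all genes), with a median of -0.15 (-0.69 without WT replicate 1 to 0.04 without WT replicate 2). PSMD3, of the regulatory particle, had 351 and 304 CPM in WT and 13.003 and 10.6 in IVF (log2 fold change 4.80, adjusted p = 0.0145). PSMD14, the deubiquitinase of this particle, had 388 and 368 CPM in WT and 39.01 and 12.3 in IVF (log2 fold change 3.88, adjusted p = 0.0229). PSMD2, of the same particle, had 159 and 278 CPM in WT and 45.9 and 47.97 in IVF (log2 fold change 2.22, adjusted p = 0.0403), and in this gene the other cloned libraries were above WT, at 377 and 433 CPM in XIST-KO and 620.0 and 667 CPM in WT+Kdm4A. PSMB3, of the catalytic core, had 4.99 and 1.57 CPM in WT and 169 and 93.5 in IVF (log2 fold change -5.31 ± 1.12 (SE), adjusted p = 0.0218).

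Of 64 cytosolic ribosomal proteins tested (77 listed, 65 matched), 1 was higher, 1 lower and 62 did not pass, 3.12% against 5.71% of all genes, with a median of 0.10 (-0.11 without WT replicate 1 to 0.38 without IVF replicate 2). RPL32 had 6653 and 6693 CPM in WT and 1212 and 1393 in IVF, and RPL15 had 321 and 151 CPM in WT and 1615 and 1317 in IVF (log2 fold changes 2.36 and -2.64, adjusted p = 0.044 and 0.0273). Ribosomal protein genes have many near-identical processed copies, so these counts are uncertain. Of 22 ribosome biogenesis genes (29 listed, 22 matched), 1 was higher, 1 lower and 20 did not pass. BOP1 (chromosome 4, 486562 to 507141), which matures the large subunit, had 541 and 555 CPM in WT and 8.11 and 4.29 in IVF (log2 fold change 6.47 ± 0.85 (SE), adjusted p = 0.00666). MYCN, a growth-promoting transcription factor, had 22.9 and 28.2 CPM in WT and 129 and 199 in IVF (log2 fold change -2.68 ± 0.60 (SE), adjusted p = 0.0273).

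Signalling lists differed in their share of calls. Of 19 genes of FGF, LIF and IGF signalling (33 listed, 27 matched), 1 was higher, 1 lower and 17 did not pass (10.5% called against 5.71% of all genes). PDGFA, a growth factor ligand, had 98.9 and 244 CPM in WT and 18.7 and 4.66 in IVF (log2 fold change 3.88 ± 0.91 (SE), adjusted p = 0.0334). IL6, a cytokine that signals through JAK kinases and STAT3, had 0.161 and 0 CPM in WT and 23.3 and 28.6 in IVF (313-fold on pooled counts, with an exact 95% counting interval of 55.9 to 12406, adjusted p = 0.0412). Of 12 interferon response and antigen presentation genes (35 listed, 30 matched), 1 was lower and 11 did not pass (8.33% called against 5.71% of all genes). The lower gene was STAT2 (chromosome 5, 21733030 to 21748960), a transcription factor of the type I interferon response. It had 1.45 and 3.66 CPM in WT and 43.0 and 95.6 in IVF (log2 fold change -4.76 ± 0.99 (SE), adjusted p = 0.0218). IRF7, an interferon regulatory factor, had 40.1 and 23.7 CPM in WT and 2.45 and 0.491 in IVF (adjusted p = 0.128). None of 17 genes of TGF-beta, BMP and NODAL signalling (30 listed, 25 matched) passed in edgeR, with 5 at an unadjusted p under 0.05 and 4 called by DESeq2. The median was -2.68 (-3.17 without IVF replicate 1 to -1.24 without IVF replicate 2, and -1.46 on TPM values). WT was wholly below IVF in 9 and above in 1, 10 of 17 (58.8%) without overlap against 59.0% of all genes. SMAD4, the shared mediator of the pathway, had 4.35 and 6.44 CPM in WT and 50.02 and 70.8 in IVF (adjusted p = 0.0529), and the ligand BMP4 had 0.966 and 0 CPM in WT and 14.1 and 23.9 in IVF (adjusted p = 0.14). None of 13 WNT genes (37 listed, 22 matched) passed in edgeR, with 3 at an unadjusted p under 0.05 and 2 called by DESeq2. DVL1, which relays the WNT signal, had 86.3 and 63.2 CPM in WT and 4.74 and 4.05 in IVF (adjusted p = 0.0947).

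Of 22 cell cycle and replication genes (46 listed, 27 matched), 1 was lower and 21 did not pass, with a median of -1.39 (-1.73 without IVF replicate 1 to -0.96 without IVF replicate 2). WT was wholly below IVF in 12 and above in 3, 15 of 22 (68.2%) without overlap against 59.0% of all genes. PCNA, the clamp of the replication fork, had 45.6 and 36.9 CPM in WT and 406 and 239 in IVF (log2 fold change -2.97 ± 0.62 (SE), adjusted p = 0.0218). CDK1, the mitotic kinase, had 0.966 and 3.31 CPM in WT and 44.5 and 51.03 in IVF (adjusted p = 0.0631). Of 21 p53 targets and apoptosis genes (37 listed, 27 matched), 1 was lower and 20 did not pass. BID, which links death receptors to mitochondria, had 7.57 and 6.27 CPM in WT and 51.7 and 60.7 in IVF (log2 fold change -3.02 ± 0.72 (SE), adjusted p = 0.036). BAK1, a pore-forming protein, had 158 and 165 CPM in WT and 28.6 and 17.9 in IVF (adjusted p = 0.128). MDM2, the ligase that degrades p53, had 2.74 and 3.48 CPM in WT and 21.4 and 26.5 in IVF (adjusted p = 0.221). BID and MDM2 lay below IVF in both WT libraries and BAK1 above. None of 26 DNA repair genes passed in edgeR (6 at an unadjusted p under 0.05, 5 with DESeq2; 37 listed, 29 matched). None of 29 splicing factors passed in edgeR (5 at an unadjusted p under 0.05, 4 with DESeq2; 38 listed, 30 matched), with SRSF11 at 0 and 2.79 CPM in WT and 30.1 and 84.2 in IVF.

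Chromatin regulators, of interest in cloning because the donor genome has to lose its marks, gave 1 call. HDAC10, a histone deacetylase family member that acts on polyamines, had 226 and 229.7 CPM in WT and 15.3 and 11.4 in IVF (log2 fold change 4.09 ± 0.89 (SE), adjusted p = 0.0243), 1 higher of 18 acetylation genes (28 listed, 19 matched). None of 7 genes of DNA methylation and demethylation (22 listed, 13 matched) passed in edgeR, with 2 at an unadjusted p under 0.05 and 2 called by DESeq2. DNMT1, the maintenance methyltransferase, had 44.6 and 17.1 CPM in WT and 84.6 and 84.04 in IVF (adjusted p = 0.224). None of 14 genes of histone H3 lysine 9 and 27 methylation (31 listed, 21 matched) passed in edgeR, with 4 at an unadjusted p under 0.05 and 4 called by DESeq2. WT was wholly below IVF in 7 and above in 3, 10 of 14 (71.4%) without overlap against 59.0% of all genes. KDM3A, a demethylase of histone H3 lysine 9, had 7.25 and 0.697 CPM in WT and 36.9 and 73.0 in IVF, and KDM1A, a demethylase of mono- and dimethylated lysine, had 3.38 and 5.57 CPM in WT and 22.03 and 63.1 in IVF (adjusted p = 0.11 and 0.0905). Of 11 imprinted genes (32 listed, 22 matched), 1 was lower and 10 did not pass. GNAS (chromosome 17, 58985580 to 59053022), the stimulatory G protein alpha subunit from a locus with imprinted transcripts, had 23.03 and 19.2 CPM in WT and 231 and 290.0 in IVF (log2 fold change -3.63 ± 0.64 (SE), adjusted p = 0.0139, and -3.78 to -3.45 with a library left out). The paternally expressed SNRPN and NDN lay higher in WT without passing. SNRPN had 18.04 and 98.6 CPM in WT and 7.95 and 2.21 in IVF (adjusted p = 0.0725), and NDN had 26.6 and 62.5 CPM in WT and 2.91 and 2.82 in IVF (adjusted p = 0.0828).

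**Figure D3:**
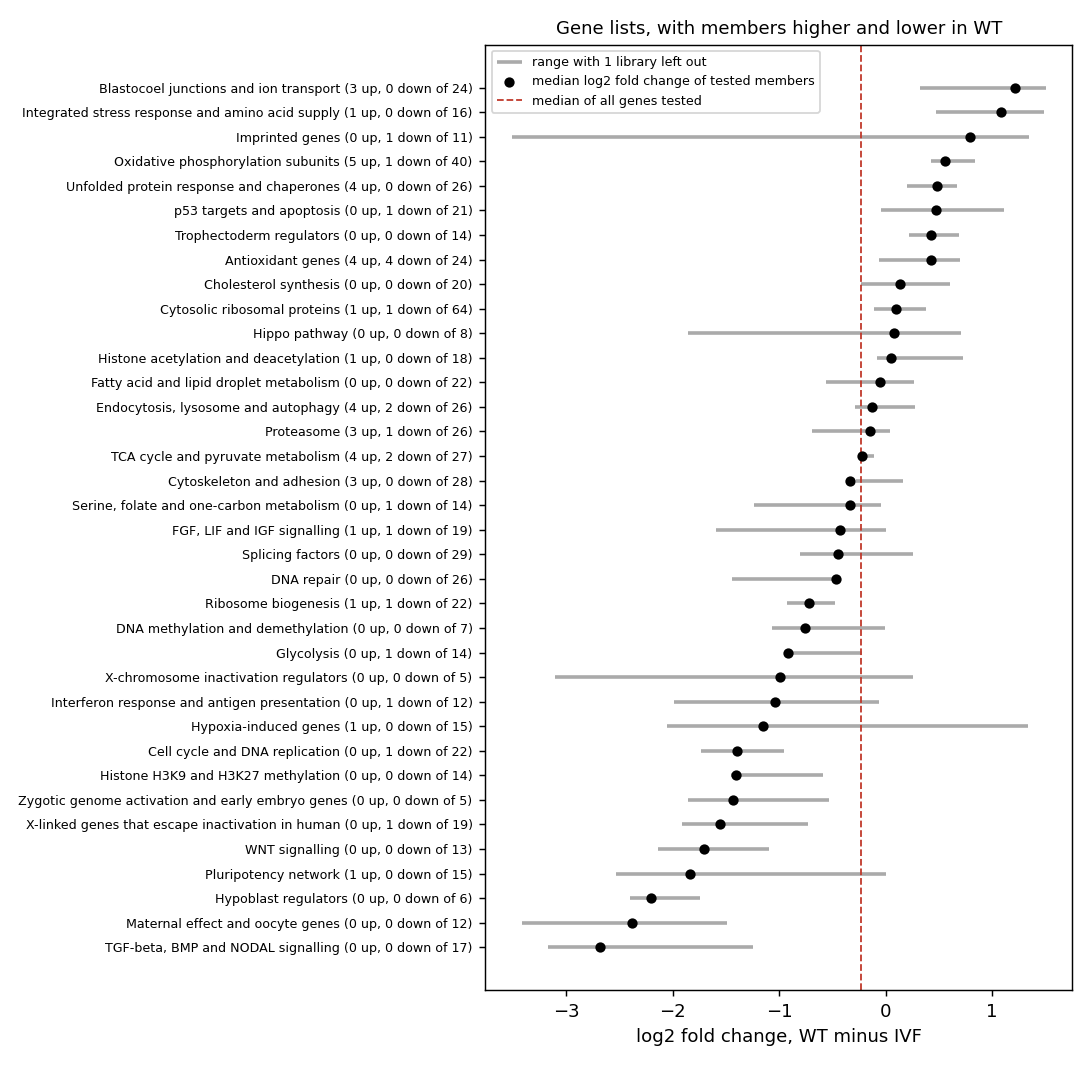
Median log2 fold change of the tested members of each of 36 gene lists (black points, horizontal axis), with the range of medians when 1 library is left out (grey) and the median of all genes tested (-0.23, dashed). Junction and ion transport genes lie at 1.22 and TGF-beta, BMP and NODAL genes at -2.68, and the grey ranges are wide enough that the order of the lists changes with the library left out. The lists share libraries and some genes.

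The X chromosome was compared with the autosomes because WT embryos are labelled male and IVF embryos pooled male and female. Over 275 X-linked genes the fold change had a median of -0.80 and that of 6635 autosomal genes -0.20, a difference of -0.60. It varied with the library left out: it was -0.02 without IVF replicate 2 and -1.13 without IVF replicate 1. Between single WT and single IVF libraries, with 0.5 CPM added to each value, the difference ran from -0.77 to -0.26. On TPM values the difference of medians was -0.25. The median CPM of X-linked genes over that of autosomal genes was 0.855 and 0.736 in WT and 1.08 and 1.50 in IVF (exact permutation test, two-sided, p = 0.333, the smallest p that 2 against 2 libraries allow). Of the X-linked genes, 6 were higher and 9 lower, against 285 and 89 of the autosomal genes. Single autosomes varied as much as the X: chromosomes 1, 16, 15, 9 and 8 had medians of -0.88, -0.79, -0.78, -0.73 and -0.73, and chromosomes 2, 3, 12 and 6 had 0.22, 0.19, 0.17 and 0.16. Chromosome 1 was lower than the X. Across the 18 autosomes and the X, these medians had a Spearman correlation of 0.714 with the number of matched genes per Mb, from 2.93 on chromosome 11 to 12.2 on chromosome 12. The part of gene density or base composition in the fold changes was not tested.

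**Figure D4:**
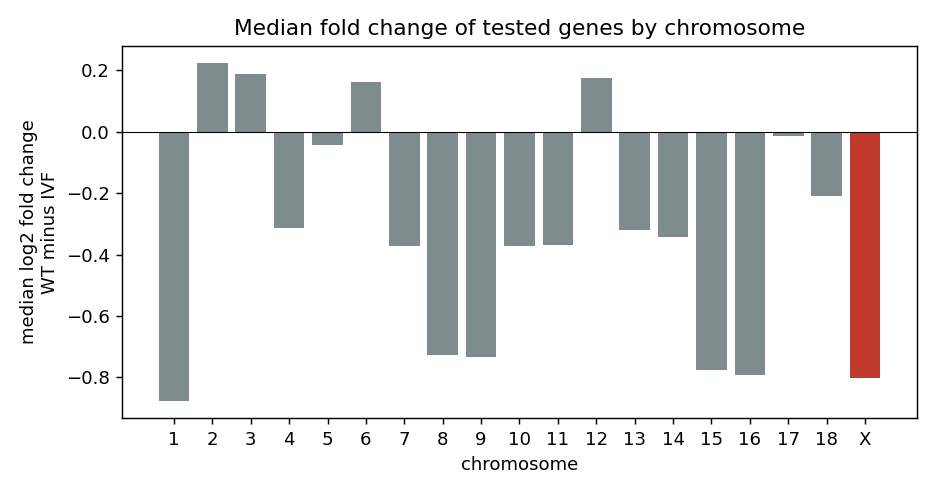
Median log2 fold change of WT over IVF (vertical axis) of the tested genes of each autosome (grey bars) and of the X chromosome (red bar). The X bar, at -0.80, lies within the range of the autosomes, from -0.88 on chromosome 1 to 0.22 on chromosome 2.

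Of 19 tested X-linked genes whose human counterparts escape inactivation (25 listed, 21 matched), 1 was lower (MED14, above) and 18 did not pass, with a median of -1.56 (-1.91 without WT replicate 1 to -0.73 without IVF replicate 2) beside -0.23 for all genes. WT was wholly below IVF in 9 and above in 3, 12 of 19 (63.2%) without overlap against 59.0% of all genes. RPS4X, a ribosomal protein, had 613 and 284 CPM in WT and 1156 and 2577 in IVF (adjusted p = 0.0696), and the helicase DDX3X had 15.9 and 2.96 CPM in WT and 30.6 and 78.3 in IVF (adjusted p = 0.248). UBA1, the ubiquitin-activating enzyme, and the initiation factor EIF1AX lay higher in both WT libraries without passing. UBA1 had 666 and 233 CPM in WT and 159.6 and 230.4 in IVF (adjusted p = 0.23), and EIF1AX had 218 and 593 CPM in WT and 145 and 84.8 in IVF (adjusted p = 0.167). None of 5 tested X inactivation regulators passed in edgeR (0 at an unadjusted p under 0.05, 0 with DESeq2; 15 listed, 6 matched), among them CTCF, the insulator protein, at 4.35 and 9.93 CPM in WT and 21.7 and 27.97 in IVF. Of 6 Y-linked genes with a count in the embryo libraries, EIF1AY, the Y copy of EIF1AX, had 0.483 and 0.522 CPM in WT and 2.14 and 0 CPM in IVF, and LOC100624648 had 103 and 60.95 CPM in WT and 28.9 and 28.8 CPM in IVF.

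The other cloned groups were set beside the WT and IVF values. The Spearman correlation over tested genes ran from 0.659 to 0.853 between WT and XIST-KO libraries and from 0.557 to 0.729 between WT and WT+Kdm4A libraries. For IVF it ran from 0.697 to 0.787 and from 0.769 to 0.809. On the log2(CPM + 1) scale, the mean of the WT+Kdm4A libraries was nearer to IVF than to WT in 261 of the 298 genes higher in WT (87.6%) and in 85 of the 99 lower genes (85.9%), against 63.3% of all genes tested. For XIST-KO the counts were 235 (78.9%) and 70 (70.7%), against 50.9% of all genes. The genes were chosen on the WT and IVF libraries, so these shares describe them and were not tested.

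**Figure D5:**
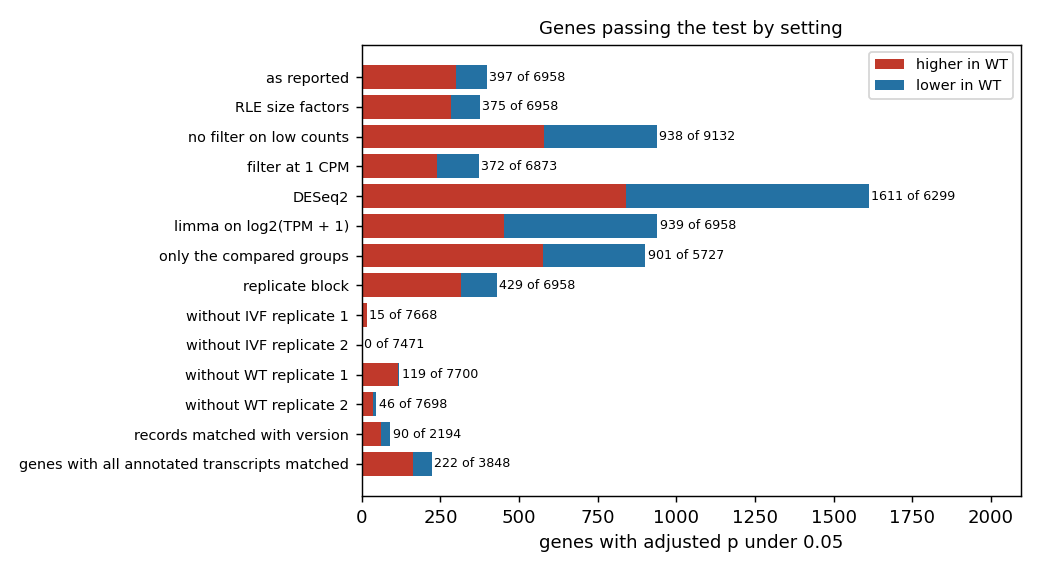
Number of genes with an adjusted p under 0.05 (horizontal axis) under each setting, higher in WT (red) and lower (blue), with the number of genes tested beside each bar. The count ranges from 0 without IVF replicate 2 to 1611 with DESeq2, and is 397 as reported.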

How the data were processed

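Expression was measured by RNA sequencing of day 6 pig embryos; per the labels' protocols, embryo RNA was converted to cDNA before a DNA library kit, so overlapping and antisense genes may not be told apart. The authors deposited, per the file headers, 1 table a library with an expected count and a TPM value for each transcript record, as RSEM writes them; the submitters' processing notes name RSEM 1.2.4 and the builds Sscrofa11.1 and susScr11. The aligner is not given in the sources used here. Deposited TPM values are scaled to the library and keep no depth.

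Of 65927 records, 25305 (38.4%) matched a gene of the RefSeq table of Sscrofa11.1 by accession without version (7.22% with it), giving 14389 genes; records not matched were left out. Coordinates are from that table. Expected counts were summed per gene, rounded, filtered with filterByExpr and scaled by TMM, and tested with edgeR 4.0.16 (quasi-likelihood, R 4.3.3), 1 mean for each of the 4 embryo groups and 4 residual degrees of freedom; the contrast was WT minus IVF. P-values were Benjamini-Hochberg adjusted over all genes tested (threshold 0.05). SE is the log2 fold change over the square root of F. limma 3.58.1 and DESeq2 1.42.0 were alternatives, and the fit was tested on simulated data, where edgeR called few of the genes made to differ. Intervals and bounds cover counting error only. With genes at 0 counts in a group set to their bound, the median of any gene list moved by at most 0.35 and none changed sign. The members, 36 gene lists and 8 marker lists were chosen with earlier results of these data known. Named genes were the called genes with the largest fold changes (up to 15 a direction), called list members (up to 6), otherwise the most abundant or most changed members, and the most abundant markers; the text describes 120 of the 189 genes this gave, and some are not reported here. No column of per-sample values was left unused among the embryo libraries. Depth differed between embryo groups: the WT and IVF libraries held less than the other cloned libraries, which held 17542900 to 20352000 expected counts.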

Additional observations from a re-analysis of the deposited data

How the results depend on the processing

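The count of 397 genes was 938 without a filter on low counts, 1611 with DESeq2, 939 with limma on log2(TPM + 1), 901 with only the compared groups, 90 with records matched by version and 222, an alternative chosen after seeing the data, with only genes whose annotated transcripts were all matched. The last 2 test fewer genes, 2194 and 3848. With 1 library left out it ranged from 0 to 119, and it stayed within 1.5 times with RLE size factors (375) and a filter at 1 CPM (372). The causes of the other differences were not tested. With the replicate block the count was 429, sharing 355 genes; the replicate numbers share only a number, with a correlation of WT and IVF deviations of -0.0471. The X minus autosome difference of -0.60 was -0.25 on TPM values, -0.20 with records matched by version and -1.13 to -0.021 with a library left out, and stayed within its spread under the other alternatives. Directions turned, in genes that did not pass, for GAPDH (-1.58 to 0.35 with a library left out), KRT18 (-0.61 to 0.58), GATA4 (-2.09 to 0.0017) and KRT8 (-0.19 to 1.15, and -0.22 on TPM values), GATA2 (-0.15 on TPM values) and HNF4A (3.66 with records matched by version); the cause was not tested. Over all alternatives, the described genes kept direction and side of the threshold in 1087 fits, lost the call in 282, gained it in 86 and turned in 7. With 2 libraries a group and a coefficient of variation of 0.893, the smallest log2 fold changes called by edgeR were 2.19 and -2.18. DESeq2 called smaller ones, such as GATA6 (-2.02, adjusted p = 0.011 with DESeq2 and 0.0747 with edgeR).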
